A study of Danio rerio with 32 samples.

Results

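The genes described here are those that lie on chromosome 14 with any part within 10 Mb of *stag2b*, the zebrafish gene for 1 of the Stag subunits of the cohesin ring. They were chosen by position alone, from the gene coordinates in the count table (GRCz11), and *stag2b* itself (ENSDARG00000053668, chr14:28486213-28527422, plus strand) was left out. Of the 32057 genes in the table, 387 met this rule, 162 at lower and 225 at higher coordinates than *stag2b*. A filter on low counts kept 298 of them (131 at lower and 167 at higher coordinates), and the other 89 had too few fragments to be tested, 22 of them with no fragment in any library.

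A mutation kept in a line of fish is inherited together with the stretch of chromosome around it, because recombination seldom separates neighbouring positions. Alleles of nearby genes that came with the mutated chromosome can therefore differ from those of another strain, whatever the mutation itself does. Cohesin also shapes transcription through chromatin loops, so genes in the same window could equally respond to loss of Stag2b. The study compared separate lines, and in these data linked variants of the *stag2b* line and effects of losing Stag2b cannot be told apart. What can be measured is whether a difference between lines was the same without and with a Wnt agonist, and which other genotypes shared it.

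The samples were pools of 80 tailbuds cut from zebrafish embryos at 16 somites, with 4 pools in each of 8 groups and 32 libraries of polyadenylated RNA. The genotypes were WIK wild type, *stag2b*-/- (allele nz207), *rad21*-/- and *rad21*+/- (allele nz171), each either untreated or given 2.5 µM BIO, an inhibitor of Gsk3 that stimulates Wnt signaling, from 4 h post-fertilization. Embryos of the *rad21* line were told apart by genotyping their heads, so *rad21*-/- and *rad21*+/- pools came from 1 line, while the *stag2b*-/- and WIK pools came from lines of their own. Whether the 4 pools of a group came from separate clutches is not given in the sources used here, so p-values measure spread between pools. That spread was 1 estimate per gene over all 8 groups, and not that of the compared pools alone.

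Library totals ran from 32464614 to 115057368 counted fragments, and the genes of the window took 1.81% to 2.18% of them. Levels are given as CPM, the usual counts-per-million scale after trimmed mean of M values scaling, with the mean ± SD over 4 pools where a mean is printed. Differences were tested with edgeR's quasi-likelihood test in 1 fit to the 32 libraries, over 21385 genes, at a 5% false discovery rate (FDR, Benjamini-Hochberg); "called" means past that threshold, and every adjusted p below comes from this fit. Summed levels of marker lists also moved between untreated wild type and *stag2b*-/-: 3 of 4 erythroid markers were matched and summed to 56.4 to 78.9 CPM in wild-type pools and 25.5 to 54.8 CPM in *stag2b*-/- pools, the 3 neural crest markers to 45.1 to 63.5 and 75.7 to 92.7 CPM, and the 3 liver and yolk layer markers to 2081 to 2116 and 1605 to 1785 CPM. Most of the liver and yolk layer sum came from *apoeb*, with means of 1982 CPM in untreated wild type and 1664 CPM in untreated *stag2b*-/-. Another of these markers, *ttr*, was all but absent, at 0.026 and 0 CPM. The 8 tailbud progenitor markers were present in every group, with sums of 1923 to 2515 CPM in untreated wild type and 1674 to 2119 CPM in untreated *stag2b*-/-. The part of these shifts in the results below was not tested, and in pooled tissue fewer cells of a type and less RNA per cell cannot be told apart.

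The mutated gene itself was still transcribed. In untreated pools *stag2b* stood at 167, 194, 217 and 175 CPM in wild type and at 168, 170, 153 and 168 CPM in *stag2b*-/-. With BIO the values were 148, 190, 184 and 165 CPM in wild type and 132, 140, 144 and 135 CPM in *stag2b*-/-. The untreated groups overlapped and the BIO-treated groups did not. The log2 fold change was -0.19 untreated (SE 0.09, adjusted p = 0.16) and -0.32 with BIO (SE 0.09, adjusted p = 0.0129), and the latter missed the threshold without wild-type BIO pool 2 (adjusted p = 0.0664) or pool 3 (adjusted p = 0.0509). A transcript that remains in the mutant does not check the genotype labels.

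Across the window, 47 of 298 genes differed between untreated *stag2b*-/- and wild type (15.8%, 20 higher and 27 lower), where 11.6% of all genes tested were called (5.3% higher and 6.3% lower). With BIO in both genotypes, 52 genes of the window were called (17.4%, 23 higher and 29 lower), against 13.6% of all genes (6.56% higher and 7.04% lower). Calls of at least 2-fold numbered 18 untreated (6.04%, against 4.99% of all genes) and 14 with BIO (4.7%, against 4.83%). Over the 298 genes the median log2 fold change was -0.03 in either condition, and its median size was 0.26 untreated and 0.22 with BIO, against 0.22 and 0.23 over all genes. The rest of chromosome 14 had 13.7% of 416 tested genes called untreated and 13.5% with BIO. As a second region, 10.3% of the 271 tested genes within 10 Mb of *rad21a*, on chromosome 16, were called in the untreated comparison of *stag2b*-/- with wild type. The count in the window was 14 when only the 8 untreated libraries of these genotypes were fitted. With BIO it was 27 to 46 when any 1 of the 8 libraries compared was left out, below 52 each time. It was 30 without wild-type BIO pool 2, 30 without wild-type BIO pool 3 and 27 without *stag2b*-/- BIO pool 4. The share of all genes in these fits is not given here, so whether the window moved with it is not shown.

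**Figure D1:**
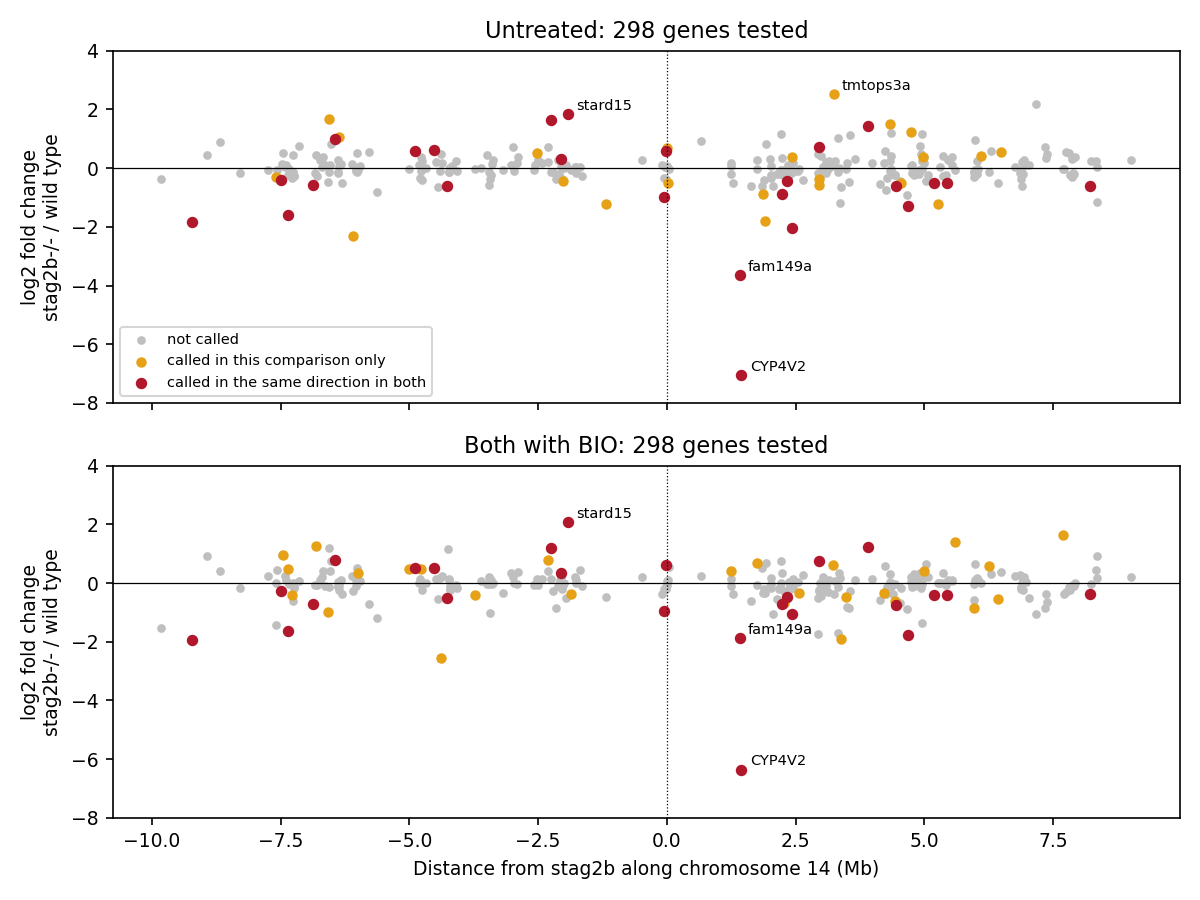
Log2 fold change of *stag2b*-/- over wild type (vertical axis) against distance from *stag2b* in Mb (horizontal axis, dotted line at *stag2b*) for the 298 genes tested, untreated above and with BIO below. Red points are the 25 genes called in the same direction in both conditions, orange points those called in that panel only, and *CYP4V2* is the lowest point of each panel, at -7.04 and -6.35.

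The comparisons without and with BIO used separate libraries, so a gene called in both was measured in separate sets of pools. Both calls came from the same fit, however, and share 1 estimate of spread per gene, so they are not fully separate tests. In the window 25 genes were called in the same direction in both (9 higher and 16 lower in *stag2b*-/-), and no gene was called in opposite directions. They made up 8.39% of the genes tested in the window, against 4.57% of all genes, 6.73% of the rest of chromosome 14 and 4.06% of genes within 10 Mb of *rad21a*. Put another way, 53.2% of the genes called untreated in the window were also called in the same direction with BIO, and 48.1% of those called with BIO were also called untreated, against 39.4% and 33.6% over all genes. In the rest of chromosome 14 these shares were 49.1% and 50%, the second above that of the window. The count of 25 genes was 16 without wild-type BIO pool 2, 9 without the pools numbered 4 and 6 when only the libraries compared were fitted. The share of all genes in those fits is not given here, so whether the window stayed above it is not shown. The difference between window and background was not tested. Of these genes, 16 were under 2-fold in at least 1 condition, *nek12* and *foxa* among them, and 9 were at least 2-fold in both (3.02% of the window against 1.81% of all genes).

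These shares did not fall at every step of distance from *stag2b*, and the nearest bins held few genes. Within 0.1 Mb, 2 of 9 tested genes were called in the same direction in both conditions (*nek12* and *psmd10*), and between 0.1 and 1 Mb none of 3 was. The share was 13.1% of 61 genes between 1 and 2.5 Mb, 6.25% of 112 genes between 2.5 and 5 Mb, and 7.08% of 113 genes between 5 and 10 Mb. By whole chromosomes, chromosome 14 had the highest percentage of genes called untreated (14.5%), ranked 7 of 25 with BIO (15.2%) and ranked 2 for calls in the same direction in both (7.41%). Across the 298 genes the 2 log2 fold changes had a Pearson correlation of 0.58, against 0.53 over all genes, and in the bin from 1 to 2.5 Mb, which holds *CYP4V2*, it was 0.93. In the 2 larger bins it was below the value over all genes, at 0.18 between 2.5 and 5 Mb and 0.33 between 5 and 10 Mb. The nearest bins, of 9 and 3 genes, gave 0.66 and 0.72. These correlations are across genes that share libraries and neighbourhoods and are descriptions only.

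**Figure D2:**
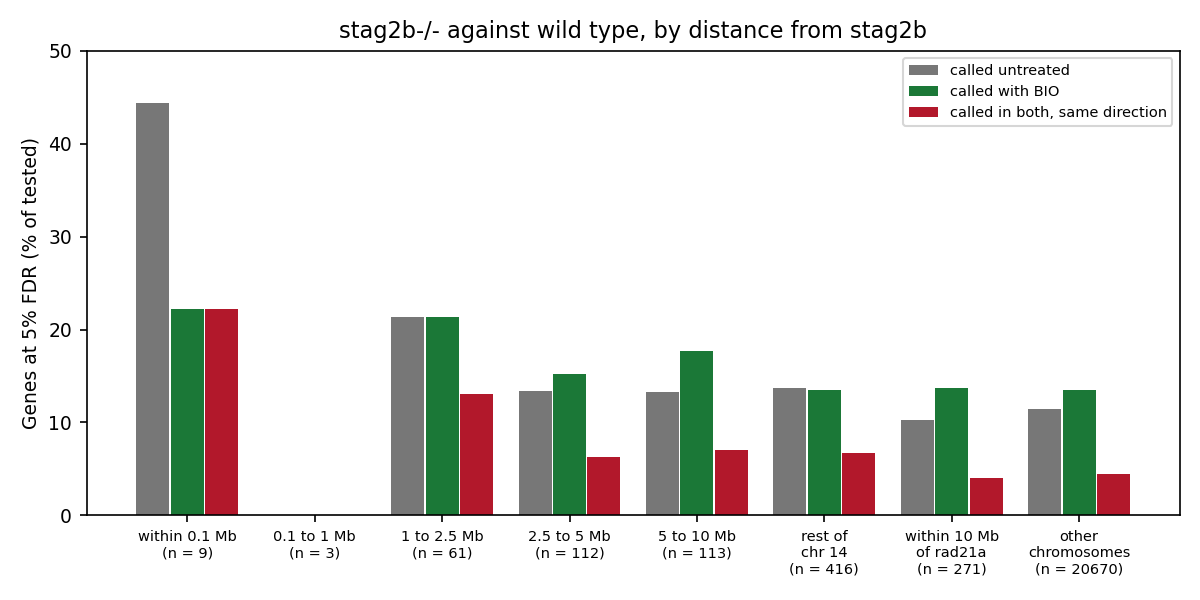
Percentage of tested genes called at 5% FDR between *stag2b*-/- and wild type (vertical axis), for bins of distance from *stag2b*, the rest of chromosome 14, genes within 10 Mb of *rad21a* and all other chromosomes, with the number tested under each. Grey bars are untreated, green bars with BIO and red bars genes called in the same direction in both, which reach 22.2% of 9 genes within 0.1 Mb, 13.1% between 1 and 2.5 Mb and 4.48% on other chromosomes; the bin from 0.1 to 1 Mb holds 3 genes and no call.

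The immediate neighbours of *stag2b* that were called between the 2 lines differed in both directions. At lower coordinates the 5 nearest tested genes were *xiap*, an inhibitor of apoptosis, *nxt2*, a cofactor of mRNA export, *psmd10*, a chaperone of proteasome assembly, *ACSL4*, an acyl-CoA synthetase, and *pin4*, a prolyl isomerase, all within 50 kb. On the other side lay *zgc:113364*, a gene without a family name, *hmmr*, a hyaluronan receptor that also acts at the mitotic spindle, *insb*, a preproinsulin gene, *TENM2*, a teneurin of cell adhesion, and *tstd1*, a sulfurtransferase-like gene. Of these 10 genes, 3 were called untreated and 2 with BIO, where 11.6% and 13.6% of all genes tested were called, and only *psmd10* was called in both. Within 0.1 Mb, where *nek12* also lies, 4 of 9 tested genes were called untreated (44.4%) and 2 of 9 with BIO (22.2%). Counts were made by strand, and fragments in exons shared by genes of 1 strand were not counted for any gene.

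*xiap* ends 2.8 kb from *stag2b*. In untreated pools it stood at 22.7, 21.3, 15.6 and 19.95 CPM in wild type and 17.5, 21.7, 22.2 and 21.5 CPM in *stag2b*-/-. The groups overlapped, and so did the groups with BIO. Its log2 fold change was 0.06 (SE 0.11) untreated and 0.08 (SE 0.11) with BIO, with adjusted p of 0.797 and 0.703.

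*psmd10* was higher in *stag2b*-/-, by 0.60 on the log2 scale untreated (SE 0.14, adjusted p = 0.00376) and 0.63 with BIO (SE 0.14, adjusted p = 0.00225). Untreated wild-type pools stood at 25.9, 16.3, 23.95 and 22.5 CPM and *stag2b*-/- pools at 25.2, 33.6, 34.5 and 41.1 CPM. With BIO the wild-type values were 24.4, 19.7, 20.4 and 21.1 CPM and the *stag2b*-/- values 36.9, 28.3, 34.03 and 33.4 CPM. The groups overlapped at 1 untreated *stag2b*-/- pool and were apart with BIO. The *rad21* line was also above wild type, at 27.1 ± 3.55 CPM in *rad21*+/- and 32.6 ± 5.06 CPM in *rad21*-/-, of which only the latter was called against wild type (log2 fold change 0.56, SE 0.14, adjusted p = 0.00187).

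*nek12*, a kinase of the NIMA-related family, lies 53.5 kb below *stag2b*. Wild-type pools held 2.95, 3.92, 4.31 and 5.28 CPM untreated and 5.14, 4.22, 4.80 and 4.15 CPM with BIO. The *stag2b*-/- pools held 2.46, 1.47, 2.01 and 2.45 CPM untreated and 2.53, 2.49, 2.01 and 2.38 CPM with BIO. All 8 *stag2b*-/- pools lay below all 8 wild-type pools. The log2 fold change was -0.97 (SE 0.16, adjusted p = 9.99e-05) untreated and -0.96 (SE 0.16, adjusted p = 0.000101) with BIO, and the untreated call was lost when only the libraries compared were fitted (adjusted p = 0.0609). In *rad21*-/- the level was lower still, at 1.46 ± 0.154 CPM untreated, a log2 fold change of -1.49 against the same wild-type pools (SE 0.17, adjusted p = 1.73e-08). In *rad21*+/-, of the same line, it was 3.12 ± 0.184 CPM untreated, which was not called against wild type (log2 fold change -0.40, SE 0.16, adjusted p = 0.0568).

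On the far side of *stag2b*, *hmmr* and *zgc:113364* differed untreated only. For *hmmr*, 17.8 kb away, untreated wild-type pools stood at 151, 104, 118 and 113 CPM and *stag2b*-/- pools at 87.2, 81.3, 92.6 and 79.9 CPM. The 2 groups did not overlap, and the log2 fold change was -0.51 (SE 0.11, adjusted p = 0.00138). With BIO the means were 82.2 ± 10.1 CPM in wild type and 88.6 ± 4.65 CPM in *stag2b*-/-, with overlapping pools (log2 fold change 0.11, SE 0.11, adjusted p = 0.578). Untreated wild type stood above the other groups, since untreated *rad21*+/- and *rad21*-/- had means of 90.1 and 91.2 CPM. *zgc:113364*, 2.7 kb from *stag2b*, showed the opposite order untreated, with 1.99, 1.70, 1.57 and 1.38 CPM in wild type and 2.13, 2.47, 2.58 and 3.56 CPM in *stag2b*-/- (log2 fold change 0.70, SE 0.17, adjusted p = 0.00458). With BIO its wild-type pools rose to 2.65 ± 0.338 CPM, beside 2.50 ± 0.162 CPM in *stag2b*-/- (log2 fold change -0.08, SE 0.17, adjusted p = 0.82), but the interaction of genotype and BIO for *zgc:113364* was not called (log2 fold change -0.78, SE 0.23, adjusted p = 0.0926). When only the 8 untreated libraries were fitted, neither gene was called (adjusted p of 0.0611 for *hmmr* and 0.166 for *zgc:113364*).

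The 6 neighbours not yet described were not called untreated. Their log2 fold changes untreated were -0.33 for *pin4*, -0.38 for *nxt2*, 0.02 for *ACSL4*, -0.05 for *insb*, 0.91 for *TENM2* and 0.19 for *tstd1*, with adjusted p between 0.0612 and 0.962. Leaving out wild-type pool 2 brought *pin4* (adjusted p = 0.0269) and *nxt2* (0.024) past the threshold, wild-type pool 3 *nxt2* (0.0456), and wild-type pool 4 or *stag2b*-/- pool 1 *TENM2* (0.0363 and 0.04). *nxt2* overlaps *ACSL4*, *psmd10* and *xiap* on the opposite strand. Only *tstd1* was called with BIO (log2 fold change 0.40, SE 0.13, adjusted p = 0.0387), and that call was lost without any 1 of 5 of the 8 libraries compared, at adjusted p of 0.0543 to 0.177 (*stag2b*-/- BIO pools 1, 3 and 4 and wild-type BIO pools 2 and 3).

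**Figure D3:**
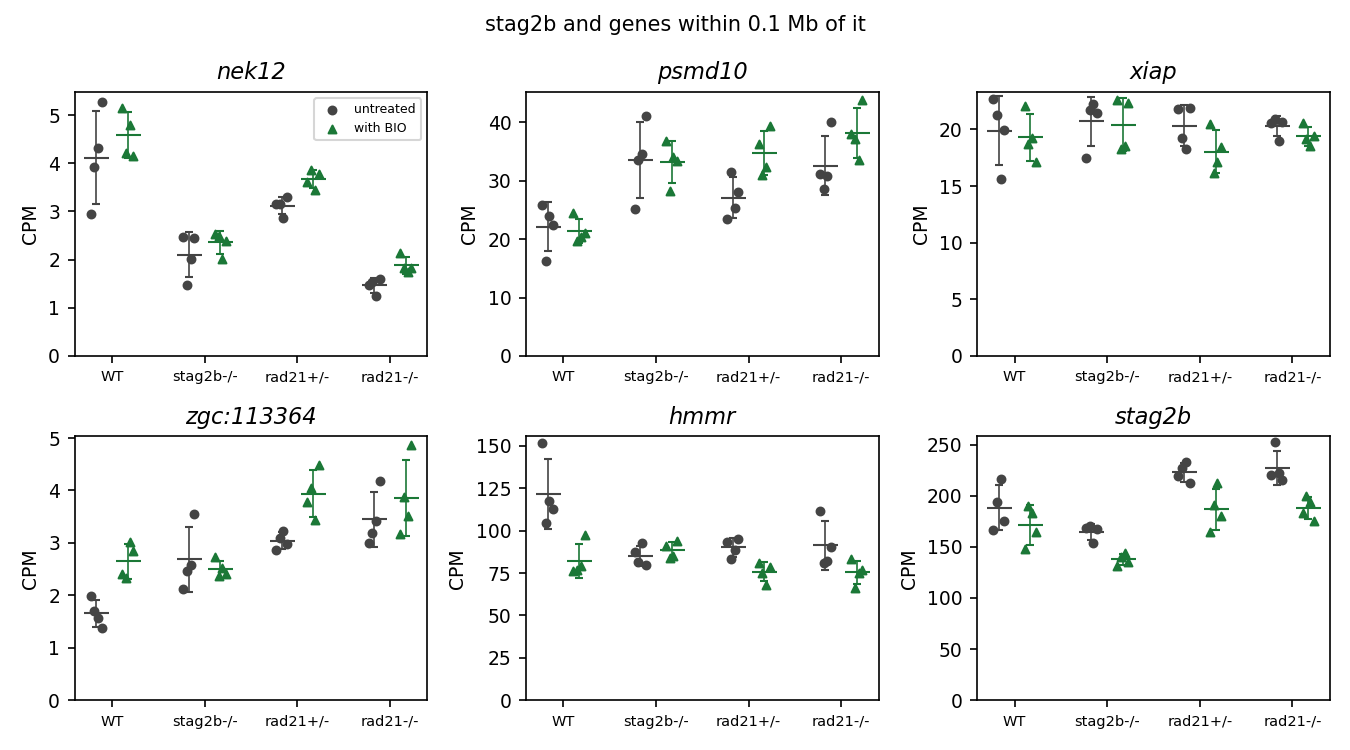
Level in CPM (vertical axis, starting at 0) of *stag2b* and 5 genes within 0.1 Mb of it in each of the 32 pools, by genotype, untreated (grey circles) and with BIO (green triangles), with the mean and SD over 4 pools. *nek12* is low in *stag2b*-/- and lower in *rad21*-/-, *psmd10* is lowest in wild type, *xiap* is level, and *hmmr* is highest in untreated wild type.

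The largest called difference of the window was at *CYP4V2* (ENSDARG00000061585, chr14:29975268-29990757, plus strand), 1.45 Mb from *stag2b*, which encodes a cytochrome P450 that hydroxylates fatty acids. Untreated wild-type pools held 1.57, 2.14, 6.30 and 4.15 CPM and *stag2b*-/- pools 0.0183, 0.0258, 0.0515 and 0 CPM. With BIO the wild-type values were 5.36, 5.59, 6.07 and 4.93 CPM and the *stag2b*-/- values 0, 0.103, 0.0694 and 0.0723 CPM. The transcript was all but missing from the 8 *stag2b*-/- pools, which lay below all 24 pools of the other groups. Summed over pools, 5 fragments were counted in untreated *stag2b*-/- and 1022 in untreated wild type, a 157-fold lower level (95% exact interval 66.9 to 483, counting error only). With BIO the sums were 12 and 1140 fragments, an 82.9-fold lower level (47.2 to 161). The fitted log2 fold changes were -7.04 (SE 0.66, adjusted p = 8.31e-09) and -6.35 (SE 0.59, adjusted p = 6.46e-09), and they depend on the small count added by the fit.

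The *rad21* line expressed *CYP4V2*, at a lower level than wild type. Untreated *rad21*+/- pools held 0.902, 1.05, 1.89 and 2.73 CPM and *rad21*-/- pools 1.30, 2.26, 1.95 and 1.52 CPM. Against *rad21*+/- the level in *stag2b*-/- was 62.7-fold lower untreated (26.6 to 194) and 31.5-fold lower with BIO (17.9 to 61.5), again from summed fragments. The log2 fold changes of the *rad21* genotypes against untreated wild type were -1.13 for *rad21*+/- (SE 0.40, adjusted p = 0.0346) and -1.02 for *rad21*-/- (SE 0.40, adjusted p = 0.0437), from the same wild-type pools as the *stag2b*-/- comparison.

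The end of *fam149a*, a gene of unassigned function at chr14:29941266-29976066, overlaps the start of *CYP4V2* on the same strand, so fragments in their shared exons were counted for neither. *fam149a* was also lower in *stag2b*-/-, with 1.62, 1.11, 1.29 and 1.07 CPM in untreated wild type and 0.147, 0.129, 0.0859 and 0.0404 CPM in untreated *stag2b*-/-. It was named after its values were seen. Its log2 fold change was -3.64 untreated (SE 0.51, adjusted p = 7.55e-06) and -1.89 with BIO (SE 0.49, adjusted p = 0.0087). Unlike *CYP4V2*, *fam149a* was low in every genotype but wild type, with 0.197 ± 0.117 CPM in untreated *rad21*+/- and 0.343 ± 0.138 CPM in untreated *rad21*-/-. It was the 1 gene of the window whose 8 wild-type pools lay outside the range of the other 24 (0.336% of the window, against 0.416% of all genes and 0.962% of the rest of chromosome 14).

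In 10 genes of the window (3.36%, against 2.65% of all genes and 4.57% of the rest of chromosome 14) the 8 *stag2b*-/- pools lay outside the range of the 8 wild-type pools. In 2 of them, *CYP4V2* and *clcf1*, they lay outside the range of all 24 other pools (0.671%, against 0.865% of all genes and 1.2% of the rest of chromosome 14). *clcf1* (chr14:22022441-22038396), the gene for a cytokine of the interleukin-6 family, lies 6.45 Mb from *stag2b*. Its untreated levels were 12.2, 11.01, 13.7 and 12.3 CPM in wild type and 17.7, 26.4, 19.6 and 33.8 CPM in *stag2b*-/-. With BIO they were 9.54, 14.4, 11.1 and 11.9 CPM in wild type and 22.2, 19.7, 19.5 and 19.5 CPM in *stag2b*-/-. The *stag2b*-/- pools were the highest in both conditions, with log2 fold changes of 0.99 (SE 0.19, adjusted p = 0.000443) and 0.78 (SE 0.19, adjusted p = 0.0042). In *rad21*-/- it was lower than in wild type, at 5.51 ± 1.85 CPM untreated (log2 fold change -1.16, SE 0.19, adjusted p = 1.37e-05), and *rad21*+/- had 9.49 ± 1.93 CPM (-0.38, SE 0.19, adjusted p = 0.134).

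Of the 25 genes, 12 also had no overlap of pools in either condition and an average log2 CPM of at least 0 over the 32 libraries: *CYP4V2*, *gdpd2*, *nek12*, *reep2*, *STC2*, *foxa*, *apln*, *ubl3b* and *zgc:66433* were lower in *stag2b*-/-, and *MCF2*, *clcf1* and *sh3rf2* higher. The share of all genes that met this rule is not given here, so the 12 cannot be set against it. When only the libraries compared were fitted, fewer genes of the window than these 12 were called in both conditions. Not all of the 12 therefore kept both calls in that fit. Over all comparisons of the named genes, that fit lost 16 calls. The other 61 results kept their status. They are not 61 calls kept, since some, such as those of *xiap*, were not called in the main fit either. At any level, 19 genes of the window had no overlap in the same direction in both conditions (6.38%, against 4.21% of all genes). In the rest of chromosome 14 this share was higher than in the window, at 7.69%.

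Of these 9 lower genes, *gdpd2*, a glycerophosphodiester phosphodiesterase 4.69 Mb from *stag2b*, had the largest difference after *CYP4V2*. Its levels were 8.82, 9.76, 10.03 and 9.65 CPM in untreated wild type and 3.21, 5.13, 3.81 and 3.56 CPM in untreated *stag2b*-/-. With BIO they were 7.12, 6.91, 6.34 and 7.53 CPM in wild type and 1.92, 2.33, 1.86 and 2.12 CPM in *stag2b*-/-. The groups stood well apart, with log2 fold changes of -1.29 (SE 0.18, adjusted p = 7.71e-06) untreated and -1.76 (SE 0.19, adjusted p = 6.41e-08) with BIO. *gdpd2* was low in *rad21*-/- too, at 3.80 ± 0.756 CPM untreated, while *rad21*+/- had 7.49 ± 1.72 CPM and was not called against wild type (log2 fold change -0.35, SE 0.18, adjusted p = 0.133).

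A pair of developmental genes, *apln* 5.2 Mb and *foxa* 5.45 Mb from *stag2b*, were lower in *stag2b*-/- and were not called lower in *rad21*+/-. Their levels in *rad21*-/- are not given here, so whether they were low in *stag2b*-/- alone is not shown. *foxa* encodes a forkhead transcription factor and *apln* the secreted peptide Apelin. For *foxa*, untreated pools stood at 23.8, 26.5, 32.3 and 34.8 CPM in wild type and 20.8, 18.01, 23.4 and 20.7 CPM in *stag2b*-/-. With BIO they stood at 39.0, 34.9, 33.6 and 37.1 CPM in wild type and 27.1, 29.3, 26.04 and 25.4 CPM in *stag2b*-/-. The *stag2b*-/- pools were the lower ones each time, by -0.50 (SE 0.11, adjusted p = 0.00162) and -0.42 (SE 0.11, adjusted p = 0.00653) on the log2 scale. BIO raised *foxa* in wild type (log2 fold change 0.30, SE 0.11, adjusted p = 0.0483) and in *stag2b*-/- (0.38, SE 0.11, adjusted p = 0.0269), so the step between genotypes stood beside a response to BIO. Untreated *rad21*+/- was higher than wild type, at 40.2 ± 2.71 CPM (log2 fold change 0.45, SE 0.11, adjusted p = 0.00159).

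For *apln* the untreated means were 25.8 ± 2.08 CPM in wild type and 18.2 ± 2.75 CPM in *stag2b*-/-, and with BIO 29.7 ± 1.35 and 22.7 ± 2.25 CPM, without overlap of pools. The log2 fold changes were -0.50 (SE 0.13, adjusted p = 0.0082) and -0.39 (SE 0.13, adjusted p = 0.0359). The call with BIO was lost without any 1 of 6 of the 8 libraries, at adjusted p of 0.0557 to 0.113, and kept without wild-type BIO pool 4 or *stag2b*-/- BIO pool 2. Untreated *rad21*+/- pools held 30.8 ± 1.44 CPM (log2 fold change against wild type 0.26, SE 0.13, adjusted p = 0.132).

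*kdrl*, a VEGF receptor of endothelium named here after its values were seen, lies 4.46 Mb from *stag2b* and was lower in *stag2b*-/- by 0.62 on the log2 scale untreated, from 15.5 ± 4.23 to 10.1 ± 0.759 CPM (log2 fold change -0.62, SE 0.18, adjusted p = 0.0205). With BIO its log2 fold change was -0.74 (SE 0.18, adjusted p = 0.00586). The 2 endothelium markers measured, of which *kdrl* is 1, summed to 19.9 to 38.8 CPM in untreated wild type and 20.1 to 23.1 CPM in untreated *stag2b*-/-. The other, *cdh5*, averaged 11.4 CPM in wild type and 11.6 CPM in *stag2b*-/- untreated, and 13.7 and 9.92 CPM with BIO.

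The remaining 4 lower genes differed by less than 2-fold. *ubl3b*, a membrane-anchored ubiquitin-like protein, was at 43.7, 42.4, 49.5 and 44.9 CPM in untreated wild type and 33.8, 33.6, 34.6 and 32.4 CPM in untreated *stag2b*-/-. Its groups did not overlap in either condition, and the log2 fold changes were -0.43 (SE 0.08, adjusted p = 0.000564) and -0.46 (SE 0.08, adjusted p = 0.000187). *reep2*, which shapes the endoplasmic reticulum, had log2 fold changes of -0.57 and -0.73, *STC2*, a secreted stanniocalcin, -0.62 and -0.52, and *zgc:66433* -0.40 and -0.27, untreated and with BIO. The untreated call of *reep2* was lost without wild-type pool 3 (adjusted p = 0.117) or *stag2b*-/- pool 4 (adjusted p = 0.114). With BIO, the call of *STC2* was lost without wild-type BIO pool 2 (adjusted p = 0.121) or *stag2b*-/- BIO pool 3 (adjusted p = 0.0539), and that of *zgc:66433* without any library compared but *stag2b*-/- BIO pool 3 (adjusted p of 0.0529 to 0.0742).

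Of the 3 higher genes, *MCF2*, a guanine nucleotide exchange factor 3.91 Mb from *stag2b*, differed most. It stood at 0.175, 0.308, 0.226 and 0.417 CPM in untreated wild type and 0.532, 0.902, 0.824 and 0.849 CPM in untreated *stag2b*-/-. With BIO it stood at 0.600, 0.299, 0.181 and 0.203 CPM in wild type and 0.866, 0.795, 0.7495 and 0.747 CPM in *stag2b*-/-. Wild type was the low group, with log2 fold changes of 1.42 (SE 0.32, adjusted p = 0.00277) and 1.24 (SE 0.32, adjusted p = 0.00863). The *rad21* line was higher again, at 1.90 ± 0.207 CPM in *rad21*+/- and 2.29 ± 0.336 CPM in *rad21*-/- untreated, and against *rad21*+/- the *stag2b*-/- pools were lower (log2 fold change -1.30, SE 0.29, adjusted p = 0.000885). Every wild-type and *stag2b*-/- pool of *MCF2* lay below a log2 CPM of 0. The gene met the average of at least 0 only through the *rad21* line.

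*sh3rf2*, a RING finger and SH3 domain protein, was higher in *stag2b*-/- by 0.62 (SE 0.17, adjusted p = 0.0133) untreated and 0.53 (SE 0.17, adjusted p = 0.0362) with BIO on the log2 scale. BIO lowered it in wild type (log2 fold change -0.52, SE 0.17, adjusted p = 0.0338) and in *stag2b*-/- (-0.60, SE 0.17, adjusted p = 0.0249). Its untreated call was lost without wild-type pool 3 (adjusted p = 0.0584) or pool 4 (adjusted p = 0.063), and its call with BIO without any library compared but wild-type BIO pool 1 or *stag2b*-/- BIO pool 3 (adjusted p of 0.0698 to 0.124).

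The other 13 of the 25 genes had overlapping pools in a condition or a low level, and they were named after their values were seen, except *psmd10*. *fam149a* and *kdrl* are described above. On the log2 scale, untreated and with BIO, the differences were -1.83 and -1.93 for *slitrk2*, a neuronal adhesion protein, -2.03 and -1.06 for *il2rgb*, a shared chain of cytokine receptors, -1.59 and -1.64 for *si:dkey-74k8.4*, -0.87 and -0.73 for *si:ch211-145o7.3*, and -0.60 and -0.37 for *ctso*, a lysosomal cathepsin. The higher genes were *stard15* (1.83 and 2.07), a member of the lipid transfer family, ENSDARG00000107431 (1.64 and 1.20), *cab39l1* (0.71 and 0.75), *si:ch211-221f10.2* (0.57 and 0.51) and *pld7* (0.31 and 0.33), a phospholipase D family gene. The means behind the largest of these were low, at 0.429 ± 0.212 and 0.118 ± 0.0211 CPM for *slitrk2* and 0.122 ± 0.0781 and 0.436 ± 0.143 CPM for *stard15* in untreated wild type and *stag2b*-/-.

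Whether a difference between lines changed with BIO was tested by the interaction of genotype and treatment. It was called for 5 genes of the window (1.68%, 3 positive and 2 negative), against 1.34% of all genes (0.711% positive and 0.631% negative). None of them was among the 25 genes called in both conditions, of which 1 had an unadjusted interaction p under 0.05. Those 25 were chosen for calls in the same direction in both conditions of this fit. That choice itself leaves little room for an interaction, so no conclusion is drawn from its absence. For those 25 genes the standard error of the interaction was 0.255 at the median on the log2 scale and reached 1.07 (*CYP4V2*), so a small change of the difference with BIO could not have been seen. Another 49 genes were called in 1 condition only, 22 untreated and 27 with BIO, and for 44 of these the interaction was not called, so a call in 1 condition did not by itself show a difference between conditions. Of all 21385 genes tested, 1486 were called untreated only and 1913 with BIO only, shares close to those of the window. The interaction was called for 250 of them. The count of 5 interactions was 3 without *stag2b*-/- pool 4, *stag2b*-/- BIO pool 4, wild-type BIO pool 1 or wild-type BIO pool 2, and 8 without wild-type BIO pool 4. Shares of all genes in these fits are not given here.

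Several developmental genes were among those called in 1 condition only, and are named after their values were seen. With BIO, the neural progenitor factor *sox3* was lower in *stag2b*-/- (57.4 ± 3.31 CPM) than in wild type (72.1 ± 7.54 CPM). Its log2 fold change with BIO was -0.33 (SE 0.10, adjusted p = 0.026), where untreated it was 0.19, and the interaction was not called (adjusted p = 0.0636). *slit3*, an axon guidance ligand, and *gpc4*, a glypican of Wnt signaling, were also lower with BIO (log2 fold changes -0.42 and -0.34, adjusted p of 0.00747 and 0.0174), again without a called interaction. Untreated only, the junction scaffold *dlg3* fell by 0.49 (SE 0.10, adjusted p = 0.00102) and the chromatin protein *phf6* by 0.57 (SE 0.14, adjusted p = 0.00594) on the log2 scale.

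The interaction with the smallest p was that of *tmtops3a*, an opsin of the teleost multiple tissue family, at chr14:31766144-31780794. It stood at 0.109, 0.163, 0.146 and 0.104 CPM in untreated wild type and 0.605, 0.825, 0.670 and 0.950 CPM in untreated *stag2b*-/-. With BIO it stood at 0.682, 0.422, 0.362 and 0.119 CPM in wild type and 0.353, 0.385, 0.264 and 0.241 CPM in *stag2b*-/-. The groups were apart untreated and overlapped with BIO, and the low group was untreated wild type, since untreated *rad21*+/- held 0.456 ± 0.0782 CPM. BIO raised it in wild type (log2 fold change 1.59, SE 0.39, adjusted p = 0.00409) and lowered it in *stag2b*-/- (-1.30, SE 0.36, adjusted p = 0.0227), and the interaction was -2.90 (SE 0.53, adjusted p = 0.00275).

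*vimr2*, a vimentin-related intermediate filament gene, was lower than wild type in untreated *stag2b*-/- (log2 fold change -1.23, SE 0.21, adjusted p = 0.000108) and rose there with BIO (1.31, SE 0.21, adjusted p = 0.000269). Its pools stood at 5.02, 10.3, 5.68 and 6.56 CPM in untreated wild type, 3.94, 2.45, 3.35 and 1.98 CPM in untreated *stag2b*-/-, and at means of 7.24 ± 0.967 and 7.30 ± 0.852 CPM with BIO. Untreated *rad21*+/- and *rad21*-/- were also below wild type, at 3.53 ± 0.583 and 4.16 ± 0.869 CPM, and had 3.92 ± 0.672 and 4.17 ± 0.347 CPM with BIO. The interaction with *stag2b*-/- was 1.24 (SE 0.29, adjusted p = 0.0232).

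In *si:rp71-46j2.7*, a gene without a family name, untreated *stag2b*-/- was higher than wild type (log2 fold change 1.503, SE 0.20, adjusted p = 4.47e-06), and the *rad21* line was higher again, at 7.15 ± 1.90 CPM in *rad21*+/- and 8.70 ± 0.811 CPM in *rad21*-/-. The means were 1.65 ± 0.429 CPM in wild type and 4.67 ± 0.977 CPM in *stag2b*-/- untreated, and 1.69 ± 0.478 and 2.12 ± 0.225 CPM with BIO. The interaction was -1.20 (SE 0.29, adjusted p = 0.0284), and it was lost without any 1 of 7 of the 16 libraries, at adjusted p of 0.0524 to 0.0946. For *hmmr* the interaction was 0.62 (SE 0.15, adjusted p = 0.0313), lost without any 1 of 8 of the 16 libraries, at adjusted p of 0.0582 to 0.0979, wild-type pool 1 giving the last of these. BIO lowered *hmmr* in wild type (log2 fold change -0.56, SE 0.11, adjusted p = 0.000418) and had no called effect in *stag2b*-/- (0.06, SE 0.11, adjusted p = 0.825).

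**Figure D4:**
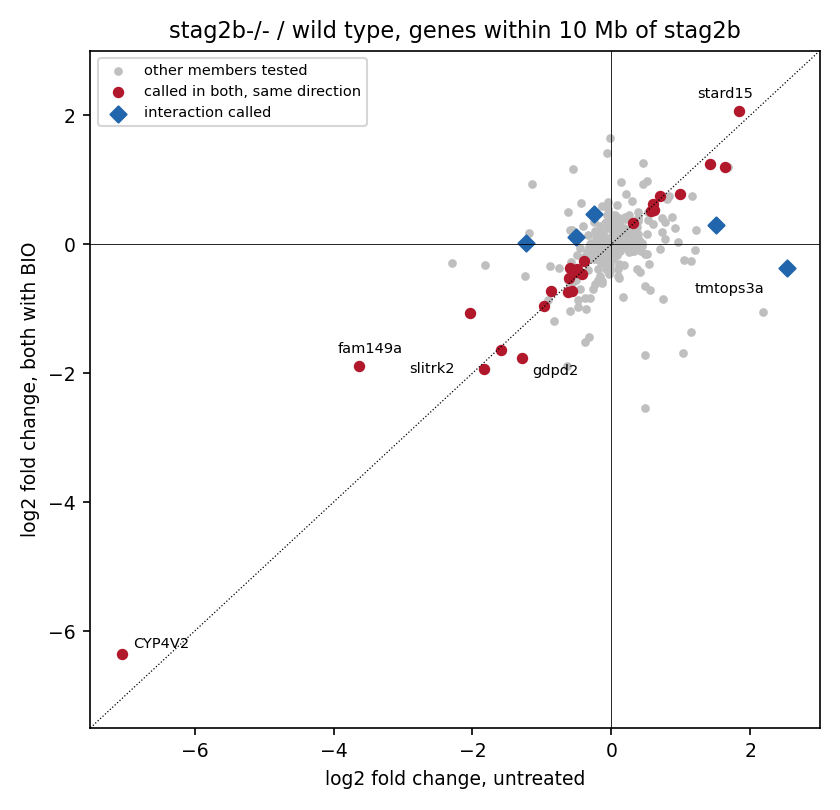
Log2 fold change of *stag2b*-/- over wild type without BIO (horizontal axis) and with BIO (vertical axis) for the 298 genes tested within 10 Mb of *stag2b*, with a dotted line where both are equal. Red circles are the 25 genes called in the same direction in both conditions, of which *fam149a* and *CYP4V2* have the most negative values untreated, and blue diamonds are the 5 genes with a called interaction.

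In wild type, BIO changed 49 of the 298 genes (16.4%, 18 up and 31 down), against 17.3% of all genes (7.58% up and 9.76% down). In *stag2b*-/- it changed 33 (11.1%, 11 up and 22 down), against 7.99% of all genes (3.26% up and 4.72% down). The 2 responses used separate libraries in the same fit, and 14 genes were called in both, 4 raised in both, 9 lowered in both, and *tmtops3a* in opposite directions. The share of all genes called in both responses is not given here, so the 14 cannot be set against it. Named after their values were seen, the chemokine gene *cxcl14* fell from 71.7 ± 11.7 to 30.9 ± 6.70 CPM in wild type (log2 fold change -1.21, SE 0.28, adjusted p = 0.00279) and from 67.2 ± 27.2 to 27.7 ± 1.83 CPM in *stag2b*-/- (-1.28, SE 0.28, adjusted p = 0.00565), and *hs6st2*, a heparan sulfate sulfotransferase, fell by 0.54 (SE 0.09, adjusted p = 0.000122) and by 0.41 (SE 0.09, adjusted p = 0.00617) on the log2 scale. *ccng1*, a cyclin of the p53 response, rose by 0.54 (SE 0.12, adjusted p = 0.0022) and 0.50 (SE 0.12, adjusted p = 0.0114). The count in *stag2b*-/- was 13 without *stag2b*-/- pool 2, 17 without *stag2b*-/- BIO pool 1, 14 without *stag2b*-/- BIO pool 3 and 18 without *stag2b*-/- BIO pool 4. Shares of all genes in these fits are not given here.

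Against *rad21*+/-, *stag2b*-/- differed at 78 genes of the window untreated (26.2%, 36 higher and 42 lower), against 30.8% of all genes (14.7% higher and 16% lower). With BIO in both lines 72 genes were called (24.2%, 25 higher and 47 lower), against 30.3% (14.7% higher and 15.6% lower). Against untreated wild type, *rad21*-/- differed at 113 genes of the window (37.9%, against 39.3% of all genes) and *rad21*+/- at 77 (25.8%, against 28.2%). The share of the window called was below the share of all genes in each of these 4 comparisons, and the gap was not tested. The comparisons with wild type share the 4 untreated wild-type pools, and those of *stag2b*-/- share its own pools.

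Some gene families had only a few members in the window. No gene with a Wnt symbol was tested, since *wnt8a* and its partner *wnt8a-1*, Wnt ligands, did not pass the filter. Both overlap ENSDARG00000105311 on the same strand, so fragments in exons shared with it were not counted for them, and their counts do not give their level. ENSDARG00000105311 (chr14:34490445-34497724) spans both. The list went by symbol and did not hold this gene, and its values are not given here. Of 3 protocadherins, which encode adhesion molecules, 2 were tested, and *PCDH11X* was lower in untreated *stag2b*-/- (log2 fold change -1.24, SE 0.38, adjusted p = 0.0296), a call lost without wild-type pool 2 (adjusted p = 0.0527), wild-type pool 4 (0.0968), *stag2b*-/- pool 2 (0.106) or *stag2b*-/- pool 4 (0.101). It overlaps *pcdh11* on the same strand. BIO lowered *PCDH1* in *stag2b*-/- (log2 fold change -0.34, SE 0.11, adjusted p = 0.0469). Neither of 2 tested FGF genes, *fgf1a* and *FGF13*, was called in the 5 comparisons of *stag2b*-/-, wild type and BIO, although *FGF13* passed in untreated *stag2b*-/- against wild type without wild-type pool 2 (log2 fold change 0.57, adjusted p = 0.0351).

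Human STAG2 lies on the long arm of the X chromosome. A short list of genes near it there was matched by name to the window. It gave 4 zebrafish counterparts, *xiap*, *zdhhc9*, *sash3* and *ocrl*, and all were tested. The list does not cover the whole arm, so these 4 do not stand for all counterparts of its genes in the window. None of these 4 was called between *stag2b*-/- and wild type in either condition, with log2 fold changes from -0.44 (*sash3*) to 0.37 (*zdhhc9*) untreated. BIO raised *sash3*, an adaptor of lymphocyte signaling, in *stag2b*-/- (log2 fold change 0.89, SE 0.27, adjusted p = 0.0401). The single ribosomal protein gene, *rpl39*, and the single respiratory chain gene, *ndufa1*, were not called in these 5 comparisons.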

How the data were processed

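Counts of fragments per gene were deposited for 32 libraries. The authors made them with Cutadapt (trimming), HISAT2 (alignment, GRCz11) and featureCounts 1.5.3 (counting by strand over exons), which left out fragments with more than 1 alignment or more than 1 gene. Exon length was read from the same table. Alignment of *stag2b* line alleles that differ from the reference was not tested.

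Counts were filtered (filterByExpr), scaled (TMM) and fitted with edgeR 4.0.16 in R 4.3.3, as 1 robust quasi-likelihood model with a mean per group, and p-values were adjusted over 21385 genes. Between replicates the chi-square per gene was 8.25 to 179.04, so no library was a copy. The largest value was of untreated wild type (70.75 to 179.04 over its pairs of pools), beside 32.86 to 97.41 in untreated *stag2b*-/-. This value also rises with depth, so it does not measure spread alone. Depth limits the lowest genes, and the exact interval for *CYP4V2* (SciPy 1.17.1) covers counting error only.

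Named genes were *stag2b*, the 5 nearest tested genes on each side, genes called in both conditions without overlap at an average log2 CPM of at least 0, the called interactions and members of 6 lists; symbols came from a name table, with 24 of the 387 genes known by ID only and some symbols (*CYP4V2*, *MCF2*, *TENM2*, *ACSL4*, *STC2*, *FGF13*) listed for more than 1 gene of the table. Some genes that met these rules are counted but their values are not reported here. The window, the lists and the tests were chosen with earlier results of these data known. Alternatives were DESeq2 1.42.0, its size factors, other filters, a replicate block, fewer libraries, left-out libraries and a 5 Mb window. Figures used matplotlib 3.10.9.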

Additional observations from a re-analysis of the deposited data

Results flagged for a closer look

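For 27 genes (*stag2b* and 26 genes named for position, for a difference in both conditions or for an interaction), the 4 pools of wild type and *stag2b*-/- without and with BIO were searched for a pool far from the other 3, and 6 of 108 groups held such a pool, where chance gives about 1 in 20. In untreated *stag2b*-/-, pool 3 was low for *stag2b* itself (153 CPM, others 167.5 to 170.4) and for *ACSL4* (16.5 CPM, others 22.9 to 23.96), and pool 1 was low for *xiap* (17.5 CPM, others 21.5 to 22.2). In *stag2b*-/- with BIO, pool 1 was high for *clcf1* (22.2 CPM, others 19.5 to 19.7) and pool 3 low for *sh3rf2* (4.08 CPM, others 5.08 to 5.19). In wild type with BIO, pool 4 was high for *hmmr* (97.2 CPM, others 76.0 to 79.2).

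For 5 genes the difference between *stag2b*-/- and wild type itself differed without and with BIO in the test of the interaction (edgeR, 5% FDR). For 4 of these, the interaction on the log2 scale was -2.90 for *tmtops3a*, 1.24 for *vimr2*, -1.20 for *si:rp71-46j2.7* and 0.62 for *hmmr*.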

How the results depend on the processing

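Counts of genes of the window are given in this section. For fits other than the main one, the share of all genes called is not given. Those counts therefore do not show whether the window moved apart from all genes. Under DESeq2, its size factors and filters, the counts stayed within 1.5 times the values reported except for 8 interactions with DESeq2 and, with genes averaging at least 1 log2 CPM only, 49 genes between *stag2b*-/- and *rad21*+/- untreated and 50 between *rad21*+/- and wild type, where fewer genes were tested. Fits to only the libraries compared take the spread from those libraries alone. They gave 14 genes between *stag2b*-/- and wild type untreated and 6 in the same direction in both conditions. They also gave 2 interactions, 27 and 18 BIO responses in wild type and *stag2b*-/-, and 45 between *rad21*+/- and wild type. Whether the source of the spread accounts for these lower counts was not tested. A window of 5 Mb holds fewer genes, 185 tested, in the main fit, so the shares of all genes given above apply. Between *stag2b*-/- and wild type with BIO 32 were called (17.3%), with 3 interactions (1.62%). BIO responses numbered 24 in wild type (13%) and 19 in *stag2b*-/- (10.3%). Against *rad21*+/-, *stag2b*-/- differed at 44 untreated (23.8%) and 40 with BIO (21.6%). Against untreated wild type, *rad21*-/- differed at 64 (34.6%) and *rad21*+/- at 38 (20.5%).

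Leaving out each library, or each replicate number, gave 25 to 58 genes between *stag2b*-/- and wild type untreated (lowest without number 4), 21 to 46 with BIO, 9 to 30 in the same direction in both (16 without wild-type BIO pool 2), 0 to 8 interactions (0 without number 2), 24 to 55 and 5 to 38 BIO responses in wild type and *stag2b*-/-, 47 to 62 between *stag2b*-/- and *rad21*+/- with BIO, and 52 to 81 between *rad21*+/- and wild type. With BIO, every such count of *stag2b*-/- against wild type lay below the 52 of the main fit, and every count against *rad21*+/- below its 72. The cause of these changes was not tested. Among the named genes, no called difference between *stag2b*-/- and wild type changed sign; some that were not called did, among them *ACSL4*, *insb*, *rpl39* and *ocrl* untreated and *tmtops3a* and *vimr2* with BIO.

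With the replicate number as a block, 63 genes were called untreated, 59 with BIO, 28 in both and 7 interactions. No label says what a number shares, and it was not taken to pair the pools, since not every same-numbered pair deviated together. Deviations of same-numbered wild-type and *stag2b*-/- pools correlated at -0.10 to 0.13 untreated and 0.06 to 0.22 with BIO, where 0 of 4 and 4 of 4 pairs correlated best with their own number, the second a hint from the data and not from the design. For *stag2b*-/- without and with BIO, and for wild type and *rad21*-/- untreated, the ranges were 0.02 to 0.20 and 0.01 to 0.21, with 3 of 4 best in each.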
